A study of Mus musculus with 18 samples.

Results

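MicroRNA processing enzymes are the proteins that cut, carry and trim microRNA precursors. The 6 genes described here, Dgcr8, Drosha, Xpo5, Dicer1, Tarbp2 and Prkra, were taken by symbol and Ensembl identifier from a table of 51467 genes, and all 6 were among the 12851 genes with enough reads to be tested. They cover the nuclear Microprocessor (Dgcr8 and Drosha), export from the nucleus (Xpo5) and the cytoplasmic Dicer complex (Dicer1 with its partners Tarbp2 and Prkra).

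A microRNA starts as a hairpin in a long primary transcript. In the nucleus DROSHA cuts the base of the hairpin while DGCR8, an RNA-binding protein, holds it, and Exportin-5 then carries the precursor to the cytoplasm, where DICER removes the loop and hands the duplex to an Argonaute protein. Cells without DGCR8 cannot make canonical microRNAs, and in mouse embryonic stem cells (ESCs) these are led by the ESCC family (ESC-specific cell cycle regulating microRNAs), which share a seed and repress messages that carry its complement.

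The libraries came from polysome gradients of ESCs of 2 genotypes, wild type (WT, the V6.5 line) and Dgcr8 knockout (Dgcr8 KO, 1 line made earlier), so that genotype and line cannot be told apart. Both were grown in 15% serum with LIF and 2i (PD0325901 and CHIR99021). Before lysis both received cycloheximide, which freezes ribosomes on messages, at 100 ug/ml over 2 minutes, and lysates were spun through sucrose of 10 to 50%. From each of 3 gradients per genotype a monosome, a low polysome (2 to 4 ribosomes) and a high polysome fraction (4 ribosomes and over) were sequenced with QuantSeq, which reads the 3' ends of polyadenylated RNA, giving 6 groups of 3 libraries. Nothing in the labels says that the gradients came from separate cultures, so p-values measure the spread between these gradients.

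Library totals were 1151649 to 1578231 counts in WT monosomes and 1707918 to 2436888 in KO monosomes. They were 2847570 to 3521636 in WT and 3089222 to 3840124 in KO low polysomes. In high polysomes they were 2495249 to 3063940 in WT and 3352066 to 4984833 in KO cells. Depth was thus higher in all KO libraries than in all WT libraries in monosomes and in high polysomes. All 8 ESC markers (among them Pou5f1, Sox2 and Nanog) were detected in both genotypes, with a summed level of 2666 to 4355 CPM (counts scaled to a common library size) over all libraries. In no library did the summed level of the fibroblast, primitive endoderm or hematopoietic markers pass 27.4 CPM. The formative epiblast markers summed to 76.6 to 146 CPM and the neuronal ones to 10.0 to 81.9 CPM, of which Fgf5 in both genotypes and Neurod1 in WT had 3 counts or fewer in every library. Levels below are CPM after TMM scaling over all 18 libraries, so a level is relative to the RNA of its own library and not an amount per cell. In such populations fewer cells that express a gene and less RNA per cell cannot be told apart.

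MicroRNAs with the ESCC seed are shown first, because the paper describes this family as predominant among the microRNAs of ESCs. Of 8 mature microRNAs in RefSeq (GRCm38.p6) with the same bases 2 to 7, 5 also share base 8, and 4 of those 5 are printed here 5' to 3' with the seed (bases 2 to 8) in capitals.
mmu-miR-291a-3p, chr7:3218968-3218989: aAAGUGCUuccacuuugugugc
mmu-miR-294-3p, chr7:3220691-3220712: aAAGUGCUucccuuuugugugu
mmu-miR-295-3p, chr7:3220815-3220837: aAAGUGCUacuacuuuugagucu
mmu-miR-302d-3p, chr3:127545665-127545687: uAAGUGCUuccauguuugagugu
All 4 are on the plus strand, the first 3 close together. The libraries hold polyadenylated RNA and do not measure these microRNAs. The 4 were chosen by seed and not by expression. In the paper's reporter line, naive ESCs (before differentiation) were negative for the miR-302 reporter. Whether the WT cells used here make miR-302d was not tested.

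A second set is shown because it lies inside the message of Dgcr8 itself. Exon 2 of Dgcr8 holds 2 annotated hairpins on the same strand, miR-3618 in the 5' UTR and miR-1306 in the coding sequence (CDS), of 88 and 79 bases. Hairpins within an mRNA are of interest here because the Microprocessor can cut such a message. The mature arms, on the minus strand of GRCm38.p6, are printed with the seed in capitals.
mmu-miR-3618-5p, chr16:18284602-18284623: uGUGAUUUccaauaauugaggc
mmu-miR-3618-3p, chr16:18284562-18284583: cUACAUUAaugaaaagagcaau
mmu-miR-1306-5p, chr16:18284288-18284310: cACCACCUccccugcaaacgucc
mmu-miR-1306-3p, chr16:18284248-18284268: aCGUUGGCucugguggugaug
Xpo5 spans 1 further hairpin, miR-693, which lies in no exon of the transcript used. The rows of all 3 hairpin genes stood at 0 counts in all 18 libraries, and featureCounts by default assigns a read that overlaps both genes to neither.

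The third set is the sequence complementary to the shared seed bases, GCACTT, in the 3' UTRs of the 6 genes (message strand only). In GENCODE M21, Dicer1 held 2 matches in a 3' UTR of 3851 bases, and Dgcr8, Drosha, Xpo5, Tarbp2 and Prkra held 0 in 3' UTRs of 1574, 168, 1327, 334 and 513 bases. The 2 Dicer1 windows are given with the match in capitals. Both are on the minus strand of GRCm38.
Dicer1, chr12:104690862-104690891: cagctcactaggGCACTTgcaatggaacta
Dicer1, chr12:104690154-104690183: tcatgtaatgctGCACTTaggttcaagtca
The first begins at base 714 of the 3' UTR and the second, which is followed by an A, at base 1422. Of 11674 tested protein-coding genes with a 3' UTR, 31.3% held a match, and of the 975 whose 3' UTR was within 20% of the length of that of Dicer1, 68.0% did. By the same rule the share was 37.8% for the length of Dgcr8, 4.79% for Drosha, 33.9% for Xpo5, 9.34% for Tarbp2 and 14.4% for Prkra. A match is a description of the letters and not of binding.

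Dgcr8 (ENSMUSG00000022718, chromosome 16, 18253948 to 18289249, minus strand, GRCm38) was looked at first because it is the targeted gene. It kept reads in every KO library. In WT monosomes it had 114, 106 and 90 counts in gradients 1, 2 and 3, or 76.3, 68.4 and 79.6 CPM. The KO monosomes held 85, 134 and 131 counts, or 47.3, 52.0 and 51.3 CPM. All 3 KO libraries were below all 3 WT libraries. In low polysomes the level was 51.8, 70.0 and 66.5 CPM in WT (147 to 251 counts) and 39.0, 58.6 and 42.0 CPM in KO cells (127 to 183 counts), and here KO gradient 2 lay within the WT range. In high polysomes it was 26.1, 27.4 and 29.6 CPM in WT (67 to 93 counts) and 14.5, 23 and 8.73 CPM in KO cells (44, 74 and 38 counts), again with no overlap but with a wide spread in KO cells.

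Dgcr8 reads fell in the KO in each fraction. The change was 1.48-fold in monosomes (log2 -0.56, SE 0.19, limma adjusted p = 0.0185) and 1.37-fold in low polysomes (log2 -0.45, SE 0.17, limma adjusted p = 0.0223). In high polysomes it was 2.02-fold (log2 -1.01, SE 0.23, limma adjusted p = 2.76e-04). QuantSeq reads lie at the 3' end, so they say nothing on a deletion elsewhere in the gene and do not check the genotype. The monosome test was lost without WT replicate 1, 2 or 3 (limma adjusted p = 0.0602, 0.0507 and 0.0707), with total counts and with no filter, and the low polysome test without WT replicate 2 or 3 or KO replicate 1 or 3 (limma adjusted p = 0.111, 0.0888, 0.105 and 0.069) or with no filter. The high polysome change stayed under an adjusted p of 0.05 in all 14 alternatives, but its size rested on KO gradient 3, without which it was -0.59 (log2). It passed the log2 threshold of 1 by little and missed it without WT replicate 2 (-0.99), without WT replicate 3 (-0.96) and with the replicate number as a block (-0.98), as well as in other fits named under the dependence on processing. WT and KO high polysome libraries of the same number deviated together (correlations of 0.129 to 0.162), so the value with this block is given as well. Pairs of different numbers were not compared, and the labels give no shared day or batch. Whether the numbers pair the genotypes is therefore not known.

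The exons of Dgcr8 share 1641 bases with those of Trmt2a, a tRNA methyltransferase gene on the opposite strand, and counting was strand-specific.

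**Figure D1:**
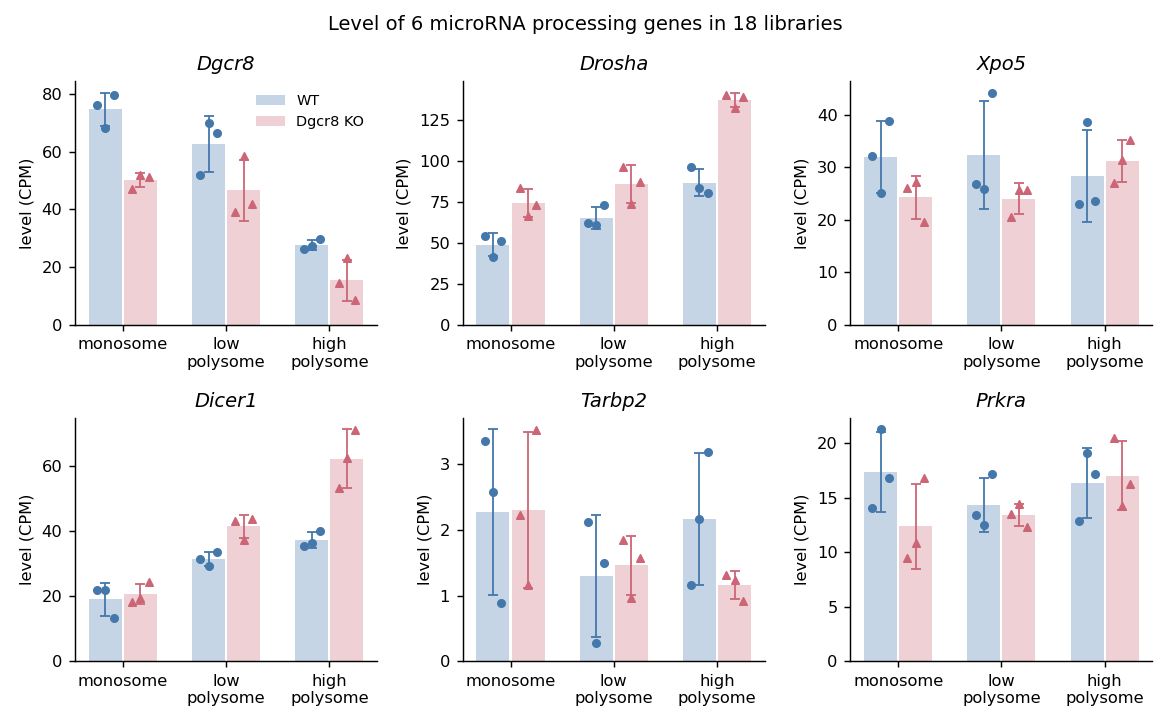
Level in CPM (y axis, from 0, scale differs by gene) of the 6 genes in monosome, low and high polysome fractions of WT (blue circles) and Dgcr8 KO (red triangles) ESCs; points are libraries, bars means and error bars SD of 3. Drosha in KO high polysomes sits at 132 to 140 CPM, above all WT libraries (41.3 to 96.3 CPM), while Tarbp2 stays under 3.6 CPM throughout.

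Drosha (ENSMUSG00000022191, chromosome 15, 12824815 to 12935290, plus strand), the RNase III enzyme that makes the nuclear cut, was higher in KO cells in all 3 fractions. In monosomes it had 54.2, 41.3 and 51.3 CPM in WT (58 to 81 counts) and 83.4, 66.4 and 72.9 CPM in KO cells (150 to 186 counts). In low polysomes it had 62.1, 60.8 and 72.9 CPM in WT and 96.5, 73.4 and 87.2 CPM in KO cells. In high polysomes it had 96.3, 83.6 and 80.3 CPM in WT (232 to 252 counts) and 140, 132 and 139 CPM in KO cells (424 to 606 counts). The genotypes did not overlap in any fraction, though in low polysomes the highest WT and the lowest KO library were close.

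The rise was 1.51-fold in monosomes (log2 0.60, SE 0.17, limma adjusted p = 0.00473) and 1.59-fold in high polysomes (log2 0.67, SE 0.13, limma adjusted p = 2.21e-05). It was 1.31-fold in low polysomes (log2 0.39, SE 0.13, limma adjusted p = 0.0135). The first 2 held in all 14 alternatives. The low polysome test was lost without WT replicate 1 or 2 or KO replicate 1 (limma adjusted p = 0.0525, 0.0924 and 0.0772). Drosha shares 72 exonic bases with Gm47288 on the same strand, where a read that overlaps both is by default assigned to neither.

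Xpo5 (ENSMUSG00000067150, chromosome 17, 46202855 to 46242299, plus strand) encodes Exportin-5, which carries precursors out of the nucleus with RAN-GTP. It passed the test in no fraction. In monosomes it had 32.1, 25.2 and 38.9 CPM in WT and 26.1, 27.2 and 19.6 CPM in KO cells (39 to 70 counts in both). In low polysomes it had 26.8, 25.9 and 44.3 CPM in WT and 20.6, 25.6 and 25.7 CPM in KO cells, so that all KO libraries lay just below the lowest WT one. In high polysomes it had 23, 38.6 and 23.6 CPM in WT and 27.1, 31.4 and 35.2 CPM in KO cells, which overlap. The log2 change was -0.38 in monosomes (95% interval -0.89 to 0.13), -0.39 in low polysomes (-0.80 to 0.01) and 0.18 in high polysomes (-0.22 to 0.59).

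In low polysomes the Xpo5 value moved most with WT gradients 2 and 3. Without WT replicate 2 it was -0.56 and passed (limma adjusted p = 0.0219), and without WT replicate 3 it was -0.14. The Xpo5 transcript of GENCODE M21 runs 1299 bases past the last exon that was counted, while its whole 3' UTR is 1327 bases. QuantSeq reads lie at the 3' end, so reads from the end of that transcript are missing from these values. The Xpo5 counts may therefore stand for only a part of its message, here and in the comparisons below.

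Dicer1 (ENSMUSG00000041415, chromosome 12, 104687742 to 104751952, minus strand), the RNase III enzyme that makes the cytoplasmic cut, was higher in KO cells in the polysome fractions. In monosomes it had 22.1, 21.9 and 13.3 CPM in WT (33, 34 and 15 counts) and 18.3, 19.4 and 24.3 CPM in KO cells (33, 50 and 62 counts), which overlap. In low polysomes it had 31.4, 29.3 and 33.7 CPM in WT (89 to 112 counts) and 43.3, 37.5 and 43.9 CPM in KO cells (117 to 167 counts). In high polysomes it had 35.5, 36.4 and 40.1 CPM in WT (91 to 126 counts) and 53.2, 62.8 and 71.2 CPM in KO cells (161 to 310 counts). The genotypes were apart in both polysome fractions.

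The Dicer1 change was 1.66-fold in high polysomes (log2 0.73, SE 0.15, limma adjusted p = 5.04e-05), which held in all 14 alternatives, and 1.32-fold in low polysomes (log2 0.40, SE 0.16, limma adjusted p = 0.0285). In monosomes it was 0.10 (log2, 95% interval -0.40 to 0.61, limma adjusted p = 0.782). The low polysome test was lost without WT replicate 1 or 2 or KO replicate 1 or 3 (limma adjusted p = 0.0659, 0.139, 0.0628 and 0.0876), in DESeq2 (adjusted p = 0.0639) and with no filter (limma adjusted p = 0.0563).

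Tarbp2 (ENSMUSG00000023051, chromosome 15, 102518357 to 102523676, plus strand) encodes TRBP, a double-stranded RNA-binding partner of DICER, and was close to the limit of detection. It had 1 to 10 counts in each library. The WT libraries held 5, 4 and 1 counts in monosomes, 6, 1 and 5 in low polysomes and 3, 6 and 10 in high polysomes. The KO libraries held 4, 3 and 9, then 6, 3 and 6, then 4, 4 and 4. No group stood apart from another, and 3 counts are 2.65 CPM in the smallest library. The log2 change in high polysomes was -0.83 with a 95% interval of -2.04 to 0.37, so a difference of the size seen for Dgcr8 was not detectable at this depth.

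Prkra (ENSMUSG00000002731, chromosome 2, 76629898 to 76648015, minus strand) encodes PACT, the other double-stranded RNA-binding partner of DICER and an activator of the kinase PKR. In monosomes it had 14.1, 21.3 and 16.8 CPM in WT and 9.45, 10.9 and 16.8 CPM in KO cells. In low polysomes it had 13.4, 12.6 and 17.2 CPM in WT and 13.5, 14.4 and 12.3 CPM in KO cells. In high polysomes it had 12.9, 19.1 and 17.2 CPM in WT and 20.5, 14.3 and 16.3 CPM in KO cells. The genotypes overlapped in each fraction. The log2 change was -0.49 (95% interval -1.07 to 0.09), -0.09 (-0.55 to 0.36) and 0.04 (-0.39 to 0.47) in monosomes, low polysomes and high polysomes, none of which passed (limma adjusted p = 0.186, 0.754 and 0.891).

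**Figure D2:**
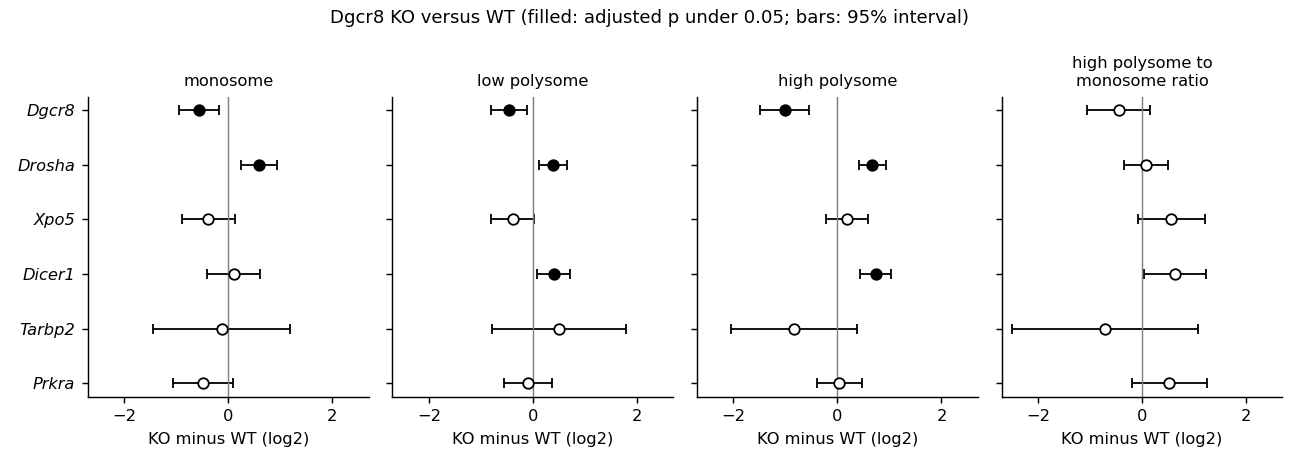
Log2 difference between Dgcr8 KO and WT (x axis) for the 6 genes (y axis) in the 3 fractions and in the high polysome to monosome ratio, with 95% intervals; filled points have a limma adjusted p under 0.05. Dgcr8 lies left of 0 and Drosha right of 0 in all fractions, and no gene is filled in the ratio.

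Counted over the 6 genes, 2 passed an adjusted p of 0.05 in monosomes, beside 37.3% of all genes tested. In low polysomes 3 passed, beside 52.3%, and in high polysomes 3 passed, beside 60.7%. With the log2 threshold of 1 added, 0 of 6 remained in monosomes and 0 in low polysomes, beside 18.1% and 25% of all genes. In high polysomes 1 (Dgcr8) remained, beside 33.1%, but 0 did with the replicate number as a block. These counts are not above the share of all genes in any fraction. The Drosha change in high polysomes was at percentile 75.6 of all tested genes, that of Dicer1 at 77.4 and that of Dgcr8 at 19.9.

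The levels of the 6 groups can be put in order for each gene. For Dgcr8 the order from low to high was KO high polysome, WT high polysome, KO low polysome, KO monosome, WT low polysome and WT monosome, and only the lowest 2 groups stood apart from the next. For Drosha it was WT monosome, WT low polysome, KO monosome, KO low polysome, WT high polysome and KO high polysome, where WT monosome and KO high polysome stood apart and the 4 groups between overlapped with their neighbours. For Dicer1 WT and KO monosomes overlapped at the bottom, WT low polysome followed, WT high and KO low polysome overlapped above it, and KO high polysome was highest. For Xpo5, Tarbp2 and Prkra each group overlapped with the next, so no order can be read.

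The next question was how each message was spread over the gradient. The translation level of a gene is here its high polysome to monosome ratio. In WT cells Dgcr8 was poor in high polysomes, with log2 ratios of -1.52, -1.30 and -1.40 in the 3 gradients. Drosha had 0.82, 1.01 and 0.64, and Dicer1 0.67, 0.71 and 1.55. In the fit, Dgcr8 was 2.67-fold lower in high polysomes than in monosomes (log2 -1.42, SE 0.20, limma adjusted p = 1.84e-07), Drosha 1.77-fold higher (log2 0.83, SE 0.16, limma adjusted p = 4.61e-05) and Dicer1 1.92-fold higher (log2 0.94, SE 0.23, limma adjusted p = 5.80e-04). Dgcr8 and Drosha, the subunits of the Microprocessor, thus stood on opposite sides, at percentile 14.8 and percentile 83.1 of all tested genes.

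Xpo5, Tarbp2 and Prkra did not pass in WT cells, with log2 translation levels of -0.18 (95% interval -0.66 to 0.30), -0.16 (-1.45 to 1.13) and -0.09 (-0.63 to 0.44). Thus 3 of 6 passed, beside 54% of all genes, and 1 of them with the log2 threshold of 1, beside 30.1%. Dicer1 passed that threshold as well without WT replicate 1 or 2, at up to 1.15 (log2).

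In KO cells the same 3 genes passed, beside 67.7% of all genes. Dgcr8 had log2 ratios of -1.65, -1.15 and -2.46 in the 3 gradients, Drosha 0.74, 0.98 and 0.93, and Dicer1 1.5, 1.66 and 1.52. The fitted translation level was -1.87 for Dgcr8 (SE 0.22, limma adjusted p = 1.42e-09), 0.90 for Drosha (SE 0.13, limma adjusted p = 1.84e-07) and 1.58 for Dicer1 (SE 0.18, limma adjusted p = 5.22e-10). Dicer1 was thus 2.98-fold richer in high polysomes than in monosomes, at percentile 92.8. With the log2 threshold of 1, Dgcr8 and Dicer1 remained, 2 of 6, beside 43%. Xpo5 was at 0.39 (95% interval -0.05 to 0.82), Prkra at 0.43 (-0.06 to 0.92) and Tarbp2 at -0.87 (-2.11 to 0.37).

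**Figure D3:**
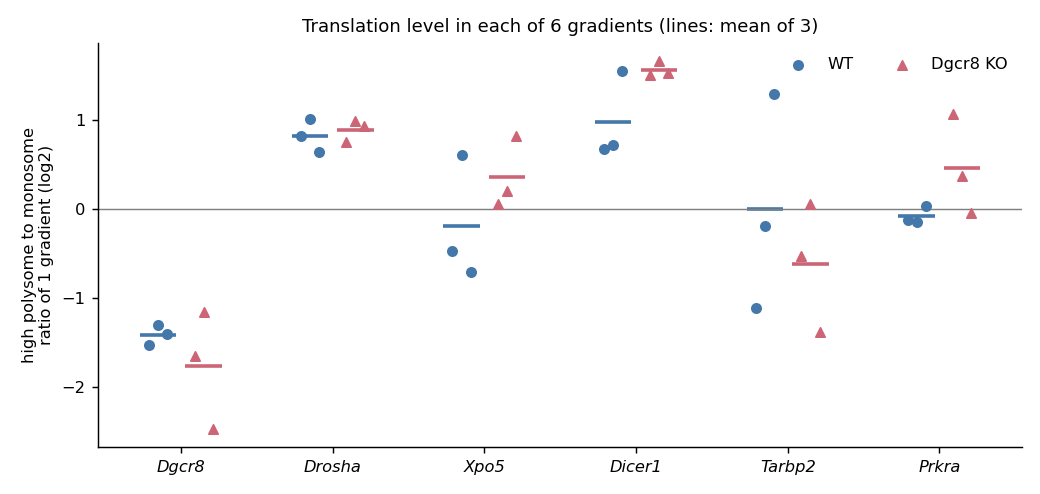
Log2 high polysome to monosome ratio of each gradient (y axis) for the 6 genes (x axis) in WT (blue circles) and Dgcr8 KO (red triangles); lines are means of 3 gradients. All 6 Dgcr8 points are at -1.15 or below, all Drosha and Dicer1 points are above 0.6, and the genotypes overlap for each gene.

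Whether these ratios differed between the genotypes was tested as the interaction of genotype and fraction. For the translation level, 0 of 6 genes passed, beside 28.2% of all genes, and 0 passed with the log2 threshold of 1, beside 15.1%. At an unadjusted p under 0.05 in limma there was 1, Dicer1. By adjusted p, 0 passed in edgeR and in DESeq2. Dicer1 changed by 0.63 (log2, 95% interval 0.05 to 1.22, limma adjusted p = 0.101), Xpo5 by 0.57 (-0.08 to 1.21, limma adjusted p = 0.196) and Prkra by 0.53 (-0.20 to 1.25, limma adjusted p = 0.292). Drosha was at 0.07 (-0.36 to 0.50), Dgcr8 at -0.45 (-1.06 to 0.16) and Tarbp2 at -0.71 (-2.50 to 1.08). These intervals reach differences of over 1 on the log2 scale for all but Drosha, so that changes of that size could not be told from none.

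Single gradients carried much of this. Without WT replicate 3, whose Dicer1 ratio of 1.55 lay with the KO values, the Dicer1 change was 0.88 and passed (limma adjusted p = 0.039). Without WT replicate 2 the Xpo5 change was 0.94 and passed (limma adjusted p = 0.0387). For Dgcr8 the change was -0.01 without KO replicate 3.

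The low polysome to monosome ratio likewise changed in 0 of 6 genes (beside 11.4% of all genes, and 5.03% with the log2 threshold of 1). At an unadjusted p under 0.05 in limma there were 0, and by adjusted p 0 passed in edgeR or DESeq2. The high to low polysome ratio changed in 0 of 6 (beside 17.8%, and 5.18% with the log2 threshold of 1). At an unadjusted p under 0.05 in limma there was 1 (Xpo5), and by adjusted p 0 passed in edgeR or DESeq2. For Xpo5 it was 0.58 (95% interval 0.00 to 1.15, limma adjusted p = 0.166), and without WT replicate 2 it was 1.01 and passed (limma adjusted p = 0.0233). For Dgcr8 it was -0.56 (-1.14 to 0.03, limma adjusted p = 0.191).

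The 6 genes differ in the length of their CDS, which the choice of genes did not use. Dicer1 (5721 bases), Drosha (4122) and Xpo5 (3615) were in the longest of 10 equal length classes of 11766 tested protein-coding genes, Dgcr8 (2322) in class 8, Tarbp2 (1098) in class 4 and Prkra (942) in class 3, counted from the shortest. Over all genes the KO change in high polysomes and in the translation level rose with CDS length, while in monosomes the class medians stayed between -0.13 and 0.02. In high polysomes the median was -1.13 (log2) in the shortest class and 0.65 in the longest, and in the translation level the longest class had a median change of 0.62. The Drosha and Dicer1 changes in high polysomes (0.67 and 0.73) lay near that 0.65. Xpo5 (0.18, 95% interval -0.22 to 0.59) was lower, but still above the 25th percentile of its class (0.16). In translation level Dicer1 and Xpo5 (0.63 and 0.57) lay near that 0.62, but Drosha (0.07) was under the 25th percentile of its class (0.26). The Drosha rise in monosomes (0.60) stood beside a class median of 0.02. Prkra was at 0.53 in translation level, above the 75th percentile of its class (0.09), and Tarbp2 at -0.71 beside a class median of -0.15. Dgcr8 lay below its class, at -1.01 beside a median of 0.32 in high polysomes. Dgcr8 is the targeted gene, and the labels do not say what its KO allele lacks. Its CDS length of 2322 bases may therefore not hold for its message in KO cells. Within the longest class the 25th and 75th percentile of the changes were 0.16 and 1.13 in high polysomes. The part of CDS length in the members' values was not tested.

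**Figure D4:**
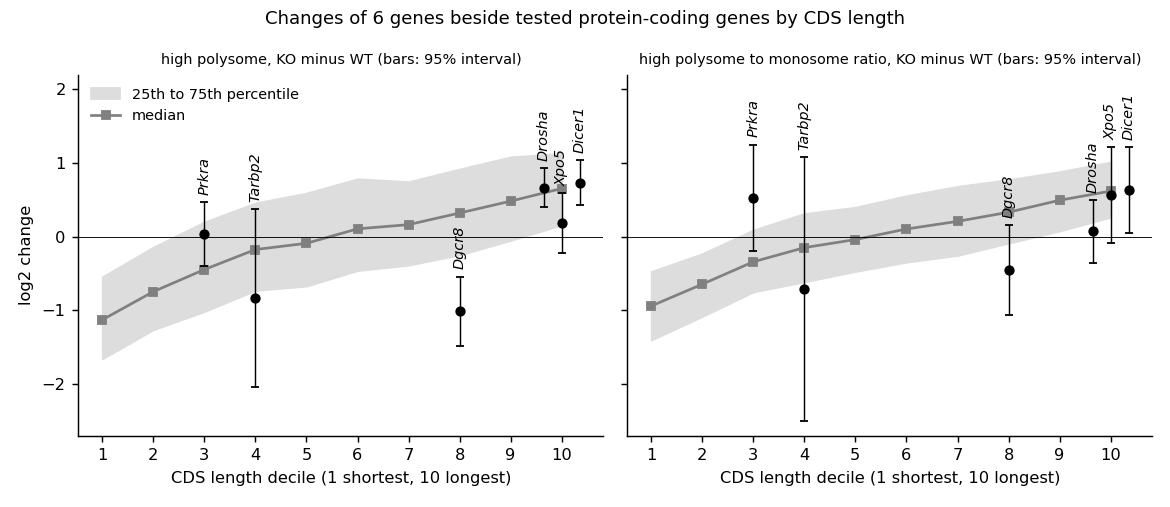
Log2 change between Dgcr8 KO and WT (y axis) in high polysomes (left) and in the high polysome to monosome ratio (right) against CDS length decile (x axis); grey squares are medians and the band the 25th to 75th percentile of tested protein-coding genes, black points the 6 genes with 95% intervals. The median in high polysomes runs from -1.13 to 0.65, and Dgcr8 (-1.01) is below the band of its decile.

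To set the 6 genes beside the rest of their pathway, 27 other microRNA biogenesis genes were described: partners of the Microprocessor and binders of primary transcripts, the export partner Ran, editing and debranching enzymes, and factors that bind, tail or degrade precursors. All 27 were tested. In monosomes 7 passed (beside 37.3% of all genes), of which 1 rose and 6 fell in the KO. In low polysomes 10 passed (beside 52.3%), of which 6 rose and 4 fell. In high polysomes 16 passed (beside 60.7%), of which 11 rose and 5 fell, while 3735 of all genes rose and 4067 fell. None of these counts was above the share of all genes. The median log2 change was -0.06, 0.02 and 0.26 in these fractions, beside -0.05, 0.00 and -0.08 over all tested genes. Scaling by the library totals instead of TMM shifted the all-gene median by -0.22 in high polysomes and by -0.33 in the change of the translation level, so the direction of small changes there depends on the scaling.

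Among the precursor factors, Lin28a and Lin28b moved in opposite directions. LIN28 proteins bind the loop of let-7 precursors and block their maturation. Lin28a was at 42.1 ± 5.99, 52.5 ± 1.64 and 43.1 ± 4.65 CPM in WT monosomes, low and high polysomes (mean ± SD, n = 3). The KO groups held 2.61 ± 0.975, 5.87 ± 7.69 and 1.51 ± 0.753 CPM, with as few as 3 counts in a library and 48 in the highest. It fell by 4.91 on the log2 scale in high polysomes (SE 0.53, limma adjusted p = 2.40e-10). Lin28b was at 1.03 ± 0.185 CPM in WT low polysomes (3 to 4 counts) and 11.7 ± 1.78 CPM in KO low polysomes, a log2 change of 3.32 (SE 0.49, limma adjusted p = 3.06e-07), and it was higher in monosomes and high polysomes too. Tent2, a poly(A) polymerase that can add a nucleotide to microRNAs, had 4 to 17 counts and a lower translation level in KO cells (log2 change -1.91, SE 0.69, limma adjusted p = 0.0321).

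Partners of the Microprocessor moved both ways. Srrt, the ARS2 protein that links primary transcripts to the cap-binding complex, was at 151 ± 25.9 CPM in WT and 345 ± 46.6 CPM in KO high polysomes (log2 change 1.2, SE 0.13, limma adjusted p = 2.49e-10). Erh, a small protein that binds DGCR8, fell in translation level (log2 change -1.74, SE 0.39, limma adjusted p = 5.99e-04), and its high polysome level was 15.4 ± 2.33 CPM in WT and 5.47 ± 1.28 CPM in KO cells (n = 3). Srsf3, a splicing factor that recognises a motif beside hairpins, was at 660 ± 38.4 CPM in WT and 318 ± 21.6 CPM in KO high polysomes (log2 change -1.06, SE 0.11, limma adjusted p = 1.14e-10). Adarb1, an RNA editing enzyme, was lower in KO monosomes (log2 change -1.21, SE 0.48, limma adjusted p = 0.0428) at 4 to 16 counts. Its genotypes overlapped there, at 5.16 to 14.1 CPM in WT and 1.55 to 5.48 CPM in KO cells. For the pathway genes the values of the alternative fits are not given. These genes were also not set beside their CDS length class. Over the tested protein-coding genes, the class median in high polysomes ran from -1.13 (log2) in the shortest class to 0.65 in the longest. In the change of the translation level it ran from -0.94 to 0.62. The part of CDS length in the changes of the pathway genes, such as Srrt, Erh and Srsf3, was not tested.

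In translation level, 10 of the 27 changed (7 higher and 3 lower in KO cells, beside 28.2% of all genes, of which 1671 were higher and 1950 lower), with a median log2 change of 0.29 beside 0.01 over all tested genes. In WT cells 12 of 27 passed for the translation level itself (4 higher and 8 lower in high polysomes, beside 54% of all genes) and in KO cells 19 of 27 (9 and 10, beside 67.7%). The ratio of low polysome to monosome changed in 2 of 27 (beside 11.4%) and that of high to low polysome in 7 of 27 (beside 17.8%).

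**Figure D5:**
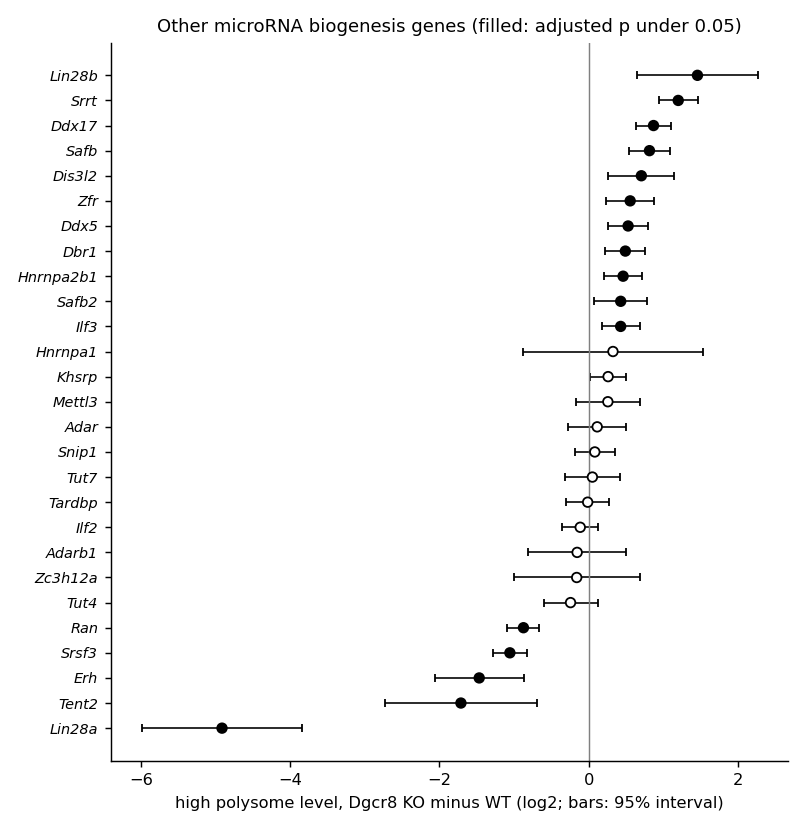
Log2 difference between Dgcr8 KO and WT in high polysomes (x axis) for 27 other microRNA biogenesis genes (y axis, in order of the difference), with 95% intervals; filled points have a limma adjusted p under 0.05. Lin28a is lowest at -4.91 and Lin28b highest at 1.46, with 11 filled points right of 0 and 5 left.

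Genes with the most similar pattern over the 18 libraries were found by Pearson's r of log2 CPM, among 7449 genes with a mean count of 50 or more. The 18 points share 6 gradients, 2 genotypes and 3 fractions, so a high r says only that 2 genes follow these groups alike. The closest to Dgcr8 were 1700030C10Rik (r = 0.953) and Tomm20 (r = 0.949), and to Drosha Htra1 (r = 0.965) and Pomt2 (r = 0.951). Those closest to Dicer1 were Grik3 (r = 0.966) and Ep300 (r = 0.964). For the other 3 genes the likeness was lower, with Ect2 (r = 0.684) for Xpo5, Sap130 (r = 0.871) for Prkra and Zbtb8a (r = 0.624) for Tarbp2, and the second genes were Fanci (r = 0.661), Swap70 (r = 0.772) and Polr3c (r = 0.618).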

How the data were processed

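The authors deposited raw counts of reads per gene from QuantSeq 3' libraries of 18 gradient fractions. Per the labels and the study's methods, reads were trimmed with Cutadapt 1.14, aligned to mm10 with STAR 2.5.3a, kept where they mapped to a single place and counted by strand over the exons of a GENCODE M14 basic annotation with featureCounts 1.5.3. No step on molecular identifiers is stated, so PCR copies count as reads, and the floor of 3 counts covers counting error only. A deposited gene length was used only as an annotation. Since 3' counts do not grow with transcript length, levels were compared within a gene only.

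Library totals leave out 92 spike-in rows. Symbols, transcripts and 3' UTRs came from GENCODE M21 on the same build (51274 of 51467 genes matched), and microRNAs from RefSeq. For each gene the transcript with the best APPRIS principal tag was used, or else the longest CDS. No protein sequences were used here.

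The 12851 genes that reached 3 CPM in 3 libraries or more were fitted with limma-voom (limma 3.58.1, edgeR 4.0.16, R 4.3.3) on counts TMM-scaled over all 18 libraries with 1 mean for each of 6 groups. All tests were two-sided, and p-values were adjusted (Benjamini-Hochberg) over the whole table. The term passed means an adjusted p under 0.05, and a second count adds an absolute log2 change over 1. Ratios of single gradients used a prior count of 2. On simulated counts for the change in translation level, with 200 of 12851 genes changed 4-fold, 100% were recovered with 2 false calls. Smaller changes, such as those of the 6 genes (-0.71 to 0.63 on the log2 scale), were not simulated. The changed genes were drawn only from those with a mean count of 50 or more. Recovery therefore does not speak to genes with fewer counts, such as Tarbp2 and Prkra.

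The 3 fractions of a gradient come from 1 lysate by the labels' protocol. Their deviations from the group means correlated at 0.033 to 0.245 over 18 pairs, and those of WT and KO gradients with the same number at -0.021 to 0.193 over 27 pairs. Within a fraction these WT and KO pairs correlated at 0.129 to 0.162 in high polysomes, where all 3 were over 0.1, at 0.053 to 0.193 in low polysomes and at -0.013 to 0.0996 in monosomes. By the rule that each of 3 pairs passes 0.1, the fit with the number as a block is given beside the main fit in high polysomes. The labels give no shared day or batch, and pairs of different numbers were not compared. Alternatives were another scaling (RLE of DESeq2 1.42.0 or total counts), other filters, edgeR, DESeq2, only the libraries compared, each gradient left out, and a block by number or gradient.

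The 6 genes, the 27 pathway genes and the rules were chosen with earlier results of these data known. Of the pathway, the up to 8 genes with the largest change that passed both thresholds in KO versus WT or in the translation level are named. A further pathway gene is not reported here. For each of the 6 genes the 2 most similar genes are named.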

Additional observations from a re-analysis of the deposited data

How the results depend on the processing

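Over all alternatives, 641 of 694 values of the 6 genes kept their direction and side of the threshold, 19 lost the test, 5 gained it and 29 changed sign, each of these from a value that had not passed. With a replicate block, either the number or the gradient, the Dgcr8 high polysome change was -0.98 (block by number) and so missed the log2 threshold of 1, Xpo5 turned sign in the low polysome to monosome change (0.016 by number, 0.012 by gradient), and no other call changed. With total counts, signs turned for Prkra (-0.19) and Xpo5 (-0.034) in high polysomes, for the translation level change of Drosha (-0.26), the low polysome to monosome change of Dgcr8 (-0.023) and the high to low polysome change of Prkra (-0.068); 1 gene passed in monosomes, 1 (Dgcr8, -0.79, adjusted p = 0.0487) in the translation level change and 2 were past both thresholds in the WT translation level. With no filter, 1 gene passed in monosomes and 1 in low polysomes, 0 were past both thresholds in high polysomes and 2 in the WT translation level, Prkra turned to 0.0099 there, and of all genes 3679 in monosomes and 6958 in the WT translation level were past both thresholds, with 12937 passing in the latter, where 25635 genes were tested. The stricter filter dropped Tarbp2 and turned Prkra in high polysomes (-0.016). With edgeR (-0.88), DESeq2 (-0.87) or only the libraries compared (-0.98), Dgcr8 in high polysomes missed the log2 threshold, leaving 0 genes. The causes were not tested. Leaving out 1 gradient, 1 to 2 of the 6 genes passed in monosomes, 0 to 3 in low polysomes, 0 to 1 in the translation level change and 0 to 1 in the high to low polysome change; past both thresholds were 0 to 1 in high polysomes, 0 to 1 in the high to low polysome change and 1 to 2 in the WT translation level. Of all genes, 1360 to 2283 passed in the high to low polysome change, with the lowest counts without WT replicate 2 (1360), KO replicate 3 (1414) and WT replicate 1 (1480). Values that turned sign in such fits ranged from -0.093 to 0.27 (Dicer1), -0.51 to 0.32 (Tarbp2) in monosomes, -0.21 to 0.044 (Prkra) and -0.31 to 0.95 (Tarbp2) in low polysomes, -0.11 to 0.17 (Prkra) in high polysomes, -0.018 to 0.14 (Drosha) in the translation level change, -0.36 to 1.29 (Tarbp2), -0.039 to 0.19 (Dgcr8) and -0.23 to 0.14 (Xpo5) in the low polysome to monosome change, and -0.15 to 0.037 (Prkra), -0.86 to 0.46 (Tarbp2) and -0.52 to 0.072 (Xpo5) in the WT translation level. Depth limits Tarbp2 most, at 1 to 10 counts a library.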
